A study of Homo sapiens with 9 samples.

Results

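The genes described here are the EGFR family of receptor tyrosine kinases and the ligands that signal through them. They were taken as 10 named genes, 4 receptors (EGFR, ERBB2, ERBB3, ERBB4) and 6 ligands (AREG, EREG, HBEGF, TGFA, BTC, EPGN), of 62666 genes in the deposited table. All 10 were found by symbol, and the filter on low counts kept all 10. ERBB4 was kept only through its few reads in 1 line. Expression was measured by poly(A)-selected, stranded RNA sequencing in 3 human breast epithelial lines, with 3 libraries for each line. MCF10A is a non-tumorigenic, spontaneously immortalised line. MCF10AT1 was derived from it with an activated HRAS allele, and MCF10Ca1a is a malignant line derived further along the same series, each a single established line. The labels name no further treatment, and the comparisons follow the progression from MCF10A through MCF10AT1 to MCF10Ca1a. All 3 lines grew in medium with insulin, hydrocortisone, cholera toxin and 20 ng/mL human EGF, so a ligand of EGFR was present throughout. Horse serum was 2.5% for MCF10AT1 and 5% for the others, so serum and line cannot be told apart in the comparisons with MCF10AT1. The labels do not say whether libraries of a line came from separate cultures. The p-values therefore measure the spread between these libraries, which may be technical.

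EGFR family ligands are made as membrane-anchored precursors and are released by proteases of the ADAM family, ADAM17 above all. A released ligand binds EGFR or ERBB4, which pair with each other or with ERBB2 and ERBB3. ERBB2 binds no known ligand and ERBB3 has little kinase activity of its own, so both act through partners. AREG, TGFA and EPGN bind EGFR, while HBEGF, EREG and BTC bind both EGFR and ERBB4. The neuregulins, encoded by NRG1 to NRG4, bind ERBB3 or ERBB4. In mammary epithelium AREG is known as a main paracrine signal of duct growth, and ERBB2 is a breast cancer oncogene. MCF10A cells are commonly grown with added EGF because they depend on it.

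Library totals ran from 62898823 to 69508842 estimated counts for MCF10A and MCF10AT1, and from 32930503 to 35243012 for MCF10Ca1a. HRAS was measured at 39.1 to 43.0 CPM (counts scaled to library size) in MCF10A, 94.3 to 99.6 in MCF10AT1 and 141.5 to 148.6 in MCF10Ca1a, which does not tell the activated allele from the normal one. Of 9 mammary epithelial markers, 9 reached 1 TPM (a level scaled to transcript length and library size) in each line, with a summed level of 2624.4 to 4283.7 TPM. The fibroblast genes COL3A1 and PDGFRA, the endothelial gene CDH5 and the leukocyte genes PTPRC and CD3E stayed at or near 0. DCN, a fibroblast marker, reached a mean of 27.9 TPM in MCF10AT1, and PECAM1, an endothelial marker, 18.7 TPM in MCF10Ca1a. CD68, a macrophage marker, averaged 31.1 TPM and PLIN1, an adipocyte marker, 6.53 TPM in MCF10Ca1a. At least 1 TPM on average was reached in the 3 lines by 2, 1 and 1 of 7 fibroblast, 0, 1 and 1 of 4 endothelial, 1, 1 and 1 of 4 immune and 0, 0 and 1 of 3 adipocyte markers. Summed over each list, the fibroblast markers ranged over 6.43 to 7.23, 27.7 to 31.5 and 1.94 to 2.33 TPM in the 3 lines in order, and the endothelial markers over 0.674 to 0.901, 0.868 to 1.32 and 15.6 to 20.8. The immune markers summed to 8.35 to 13, 2.65 to 2.71 and 30.2 to 33.1 TPM and the adipocyte markers to 0.159 to 0.373, 0.202 to 0.358 and 6.66 to 7.68 TPM. The part of these genes in the results was not tested. MCF10A replicate 1 stood apart from the other libraries of its line. A chi-square comparison gave 68.3 per degree of freedom for MCF10A replicates 1 and 3 and 2.42 to 15.7 for pairs within the other lines. Results for the members that turned on that library are given with and without it.

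Of the 9 genes other than ERBB4, 5 were higher and 3 lower in MCF10AT1 than in MCF10A, and 1 was not called (edgeR, adjusted p under 0.05). Over all 17910 genes tested, 29.8% were called higher and 31.8% lower in that comparison. From MCF10AT1 to MCF10Ca1a 6 were higher, 2 lower and 1 not called, beside 38% and 40.3% of all genes. From MCF10A to MCF10Ca1a 5 were higher, 3 lower and 1 not called, beside 39% and 41.9% of all genes. Most genes of these lines thus passed the test, and a call alone does not set the family apart. Called changes of at least 2-fold were made by 1, 6 and 6 of the 9 genes in the 3 comparisons, against 18%, 37.7% and 42.9% of all genes. Their median absolute log2 fold change was 0.70, 1.35 and 1.19, against 0.38, 0.76 and 0.84 for all genes. Fold changes here are edgeR's, on the CPM scale, unless TPM is named. As the lines are bulk samples, fewer cells that make a transcript and less transcript per cell cannot be told apart.

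Among the ligands the released growth factors did not move as 1 group. AREG and EPGN rose from MCF10A to MCF10AT1 and then fell in MCF10Ca1a to below their MCF10A level. EREG and HBEGF rose at both steps, with the larger step into MCF10Ca1a. TGFA and BTC were slightly lower in MCF10AT1 and higher in MCF10Ca1a than in MCF10AT1. EPGN, EREG, AREG and BTC lie in that order on chromosome 4, in 486 kb from the start of EPGN to the end of BTC (GRCh38, GENCODE 29).

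The 250 bases upstream of the annotated starts are shown for those 4 neighbours, since EREG changed in the opposite direction to AREG and EPGN, and for HBEGF, which rose most among the members other than ERBB4. Of the 10 genes, 9 had an entry in the RefSeq promoter table (GRCh38.p14), ERBB3 being unmatched. The windows are chr4:74308220-74308469 for EPGN, chr4:74364895-74365144 for EREG and chr4:74444886-74445135 for AREG, all on the plus strand. Those on the minus strand are chr4:74794524-74794773 for BTC and chr5:140346604-140346853 for HBEGF. All are read 5′ to 3′ on the strand of the gene. Capitals mark matches on either strand to 6 motifs, namely TATAAA (the TATA box), TGACGTCA (the cAMP response element), TGACTCA (AP-1), GGGCGG (the GC box), CCAAT and CCGGAA (ETS).
EPGN: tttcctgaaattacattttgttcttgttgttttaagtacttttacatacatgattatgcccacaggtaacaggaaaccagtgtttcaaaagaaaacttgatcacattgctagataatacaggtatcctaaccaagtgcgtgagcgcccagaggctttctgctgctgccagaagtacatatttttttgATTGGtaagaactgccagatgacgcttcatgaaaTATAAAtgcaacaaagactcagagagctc
EREG: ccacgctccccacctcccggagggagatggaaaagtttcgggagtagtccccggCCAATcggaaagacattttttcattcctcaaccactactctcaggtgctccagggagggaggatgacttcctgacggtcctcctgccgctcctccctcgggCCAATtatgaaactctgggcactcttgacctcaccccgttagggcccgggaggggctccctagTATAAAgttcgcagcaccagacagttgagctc
AREG: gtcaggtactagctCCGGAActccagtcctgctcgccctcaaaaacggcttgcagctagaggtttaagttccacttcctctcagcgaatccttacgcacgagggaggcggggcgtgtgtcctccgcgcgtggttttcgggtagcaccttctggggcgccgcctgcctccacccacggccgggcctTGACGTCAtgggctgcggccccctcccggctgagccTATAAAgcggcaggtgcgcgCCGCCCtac
BTC: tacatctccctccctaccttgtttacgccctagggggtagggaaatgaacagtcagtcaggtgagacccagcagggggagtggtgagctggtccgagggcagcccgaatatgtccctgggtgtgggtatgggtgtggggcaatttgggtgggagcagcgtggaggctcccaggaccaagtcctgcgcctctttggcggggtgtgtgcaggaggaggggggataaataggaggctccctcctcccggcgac
HBEGF: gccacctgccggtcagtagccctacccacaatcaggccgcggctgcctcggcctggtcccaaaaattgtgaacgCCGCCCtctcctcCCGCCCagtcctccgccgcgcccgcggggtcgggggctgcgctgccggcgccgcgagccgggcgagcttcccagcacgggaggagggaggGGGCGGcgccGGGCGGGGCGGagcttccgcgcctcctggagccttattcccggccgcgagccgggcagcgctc

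EPGN, EREG and AREG each held TATAAA on the strand of the gene, beginning 29, 32 and 29 bases before the start, and BTC and HBEGF held none. TATAAA occurred in 10.7% of the 35116 RefSeq windows of 250 bases. Of the 9 genes with an entry, AREG alone held TGACGTCA, from 65 to 58 bases before the start, a motif of 1.65% of all windows. It also held 1 CCGGAA (14.5% of windows) and 1 GGGCGG (42.6%). EREG held 2 copies of CCAAT and EPGN 1 on the opposite strand, against 32% of windows with at least 1. HBEGF held 5 copies of GGGCGG, of which a pair share 1 base, and no other motif searched. BTC held none of the 6. TGACTCA, found in 4.2% of windows, was in none of these 5 windows. A match describes the letters only and is not a binding site.

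AREG, which encodes amphiregulin (chr4:74445134-74455009, plus strand), was the most abundant ligand transcript in every line. Its level was 1249.1, 1228.5 and 1194.3 TPM in the MCF10A libraries, 2319.8, 2380.2 and 2237.7 in MCF10AT1 and 520.8, 537.3 and 522.9 in MCF10Ca1a. The 3 lines did not overlap, with MCF10AT1 highest and MCF10Ca1a lowest. By mean TPM its rank among all genes was 133 in MCF10A, 79 in MCF10AT1 and 253 in MCF10Ca1a. The log2 fold change was 1.06 (SE 0.06, adjusted p = 2.01e-09) from MCF10A to MCF10AT1. From MCF10AT1 to MCF10Ca1a it was -2.39 (SE 0.06, adjusted p = 4.06e-13), a 5.25-fold lower level. Against MCF10A the MCF10Ca1a libraries were lower by 2.53-fold (log2 fold change -1.34, adjusted p = 4.58e-11).

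EPGN encodes epigen, a low-affinity ligand of EGFR, and its gene (chr4:74308473-74315307, plus strand) showed the same order of lines as AREG. It was at 132.5, 142.1 and 156.7 TPM in MCF10A, compared with 232.8, 235.9 and 230.8 in MCF10AT1, and 109.9, 109.1 and 110.7 in MCF10Ca1a. The lines again did not overlap. The rise into MCF10AT1 was 1.77-fold (log2 fold change 0.82, SE 0.08, adjusted p = 5.08e-07) and the fall from there to MCF10Ca1a 2.72-fold (-1.44, SE 0.08, adjusted p = 6.61e-10). MCF10Ca1a was below MCF10A by 1.54-fold (-0.62, adjusted p = 3.94e-06).

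EREG encodes epiregulin (chr4:74365143-74388751, plus strand) and lies between these 2 genes, 49.8 kb from EPGN and 56.4 kb from AREG. The MCF10A libraries had 23.1, 22.5 and 21.3 TPM, the MCF10AT1 libraries 32.2, 33.1 and 31.8 and the MCF10Ca1a libraries 203.6, 208.2 and 185.5. Each line was above the one before it with no overlap. EREG rose 1.63-fold from MCF10A to MCF10AT1 (log2 fold change 0.70, SE 0.06, adjusted p = 1.17e-07). The step to MCF10Ca1a was 5.19-fold (2.38, SE 0.06, adjusted p = 3.15e-13), and the whole rise from MCF10A 8.45-fold (3.08, SE 0.06, adjusted p = 2.10e-14). So in MCF10Ca1a EREG moved up while the gene on each side of it moved down. BTC, 290 kb beyond AREG, changed least of the 4.

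HBEGF encodes heparin-binding EGF-like growth factor (chr5:140332843-140346631, minus strand). It was measured at 10.9, 10.4 and 9.06 TPM in MCF10A, followed by 17.3, 16.8 and 15.6 in MCF10AT1, and 125.3, 123.3 and 124.6 in MCF10Ca1a. No libraries of different lines overlapped. The rise was 1.80-fold into MCF10AT1 (log2 fold change 0.85, SE 0.06, adjusted p = 1.60e-08) and 6.36-fold from there into MCF10Ca1a (2.67, SE 0.06, adjusted p = 9.81e-14). Its 11.5-fold rise from MCF10A to MCF10Ca1a (3.52, SE 0.06, adjusted p = 5.20e-15) was the largest among the 9 members other than ERBB4. Of all genes tested, 9.3% changed more in that comparison.

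TGFA encodes transforming growth factor alpha (chr2:70447280-70554193, minus strand). Its levels were 51.5, 45.7 and 41.6 TPM in MCF10A, then 36.6, 36.5 and 35.5 in MCF10AT1, and 116.5, 119.4 and 109.9 in MCF10Ca1a. MCF10AT1 lay just below the lowest MCF10A library and MCF10Ca1a far above both. The difference between MCF10AT1 and MCF10A was small (log2 fold change -0.22, SE 0.05, adjusted p = 0.00176). From MCF10AT1 to MCF10Ca1a TGFA rose 2.54-fold (1.35, SE 0.05, adjusted p = 1.51e-11), and from MCF10A to MCF10Ca1a 2.19-fold (1.13, adjusted p = 5.58e-11).

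BTC encodes betacellulin (chr4:74744759-74794686, minus strand) and was the least abundant of the 6 ligands in each line. It had 5.17, 4.41 and 4.98 TPM in MCF10A, against 3.56, 4.07 and 3.30 in MCF10AT1, and 5.85, 5.38 and 6.26 in MCF10Ca1a. The 3 lines lay close together. BTC was 1.28-fold lower in MCF10AT1 than in MCF10A (log2 fold change -0.36, SE 0.09, adjusted p = 0.00228), a call that counts scaled for transcript length did not make (-0.29, adjusted p = 0.0579). It was 1.33-fold higher in MCF10Ca1a than in MCF10AT1 (0.42, SE 0.09, adjusted p = 7.22e-04). Between MCF10Ca1a and MCF10A the log2 fold change was 0.05, with a 95% interval from -0.13 to 0.24 (adjusted p = 0.574). On log2(TPM + 1) that difference was 0.22 and passed limma's test (adjusted p = 0.0433).

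**Figure D1:**
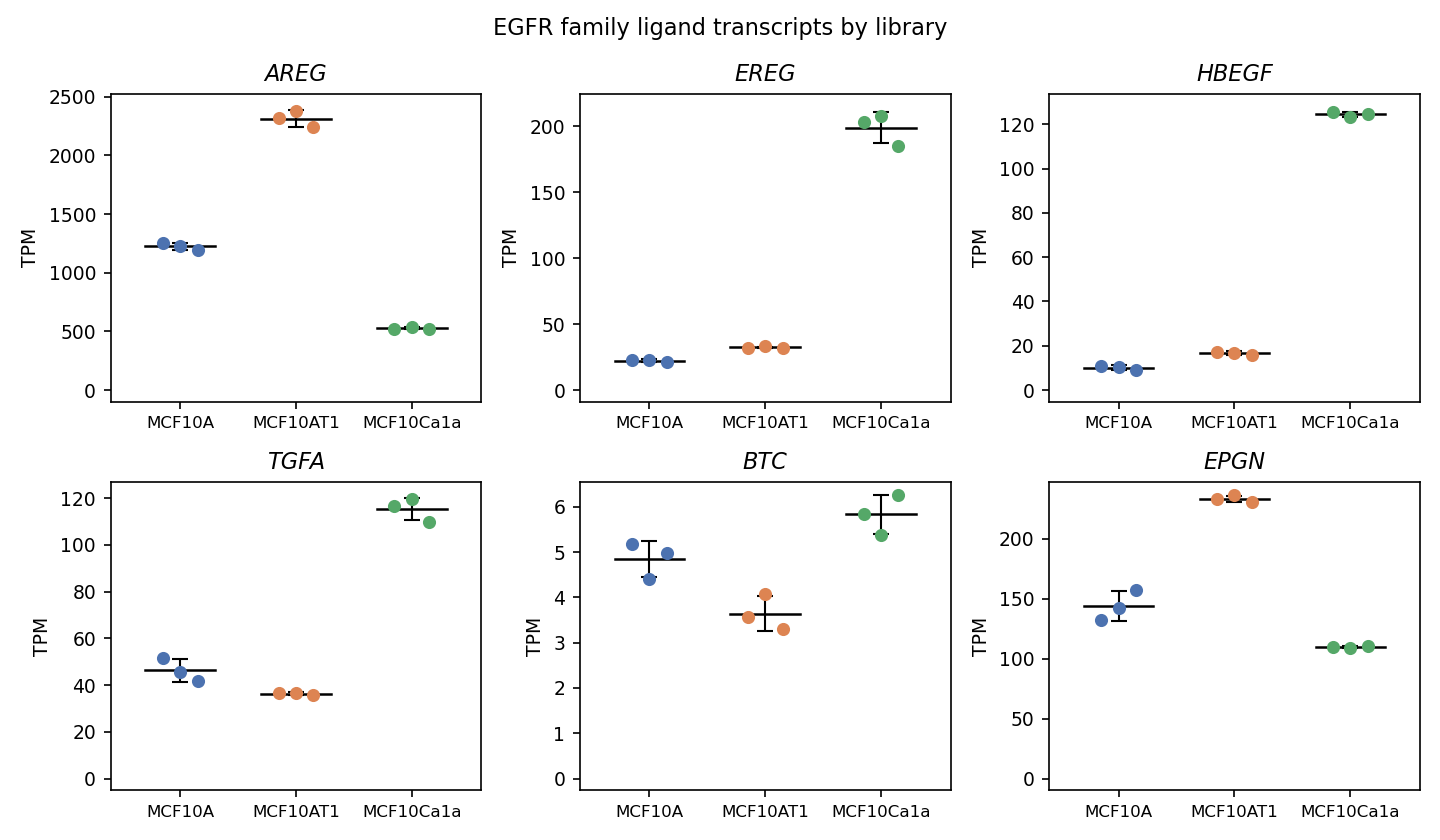
Level of the 6 ligand transcripts in TPM (vertical axis, from 0, a scale for each gene) in each library of the 3 lines; points are libraries, the line and bar the mean and SD of 3. AREG and EPGN peak in MCF10AT1, while EREG, HBEGF and TGFA are highest in MCF10Ca1a, at means of 199.1, 124.4 and 115.3 TPM.

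On chromosome 4 the genes around the ligand cluster did not share a direction. In MCF10Ca1a against MCF10AT1, MTHFD2L, a mitochondrial folate enzyme gene 5.37 kb below EPGN, fell with EPGN (log2 fold change -1.37, adjusted p = 7.58e-09). ENSG00000249942, a gene without a symbol 97.6 kb above AREG, rose with EREG (2.62, adjusted p = 7.30e-08). Among the chemokine genes at lower coordinates PPBP (3.46, adjusted p = 1.10e-06) and CXCL3 (1.93, adjusted p = 7.75e-12) rose, and CXCL1 fell (-0.41, adjusted p = 2.49e-06). For CXCL2 the value was -0.02 (adjusted p = 0.771). PPBP, at 5 to 48 counts, had fallen into MCF10AT1 (-1.42, adjusted p = 0.00924). CXCL5 had 45 to 50 counts in MCF10A, 0 or 1 in MCF10AT1 and 11 to 21 in MCF10Ca1a, and was lower in MCF10Ca1a than in MCF10A (-0.80, adjusted p = 0.0245). CXCL3, like EREG, was highest in MCF10Ca1a and lowest in MCF10A. Within 500 kb of AREG 11 other genes were tested, of which 8 were higher and 2 lower in MCF10Ca1a than in MCF10AT1 (7 and 2 of 10 without PARM1, which passed the filter only through MCF10A). Elsewhere on chromosome 4 30.4% of 635 genes were higher and 51.2% lower.

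**Figure D2:**
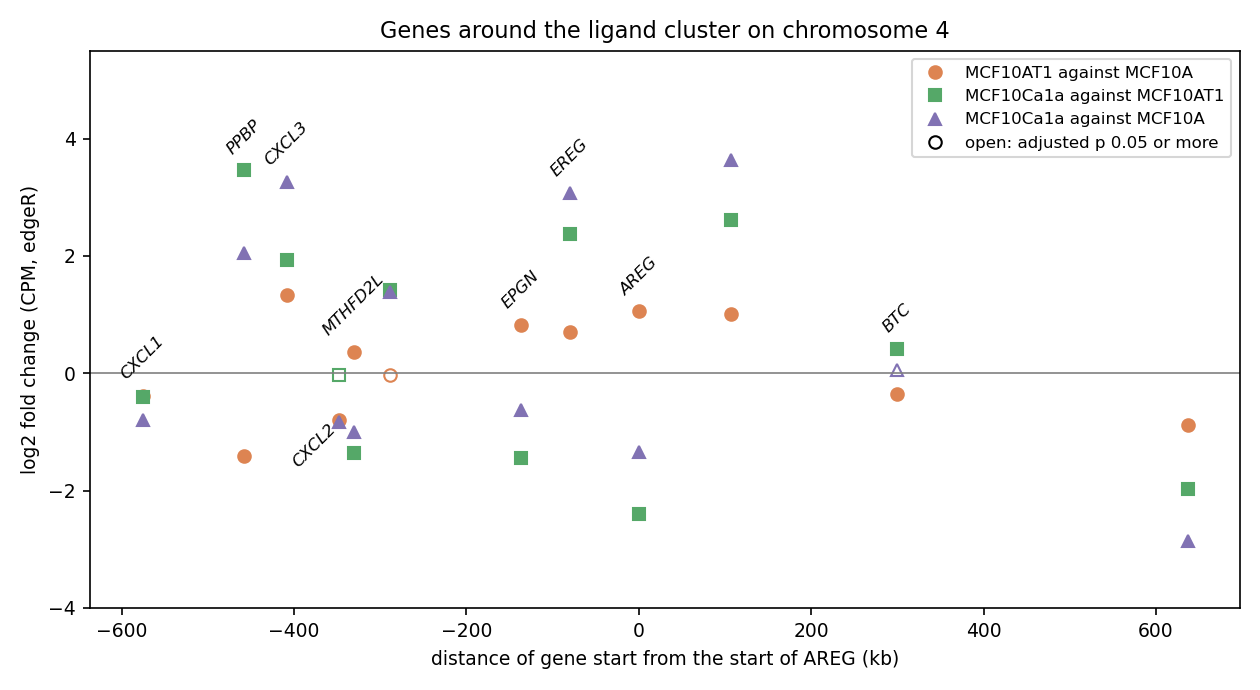
Log2 fold change (vertical axis, edgeR on CPM) of 12 of the 14 tested genes from CXCL1 to LINC02562 (CXCL5 and PARM1, at 3 counts or fewer in a line, are left out) against distance from the AREG start (horizontal axis, kb), with a symbol for each comparison and open symbols where the adjusted p was 0.05 or more. EREG lies at 2.38 in MCF10Ca1a against MCF10AT1, between EPGN at -1.44 and AREG at -2.39.

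Summed over the 6 ligands, the level was 1451.2 ± 22.2 TPM in MCF10A, 2634.5 ± 76.1 in MCF10AT1 and 1081.5 ± 21.5 in MCF10Ca1a (SD, n = 3). AREG made up 84.3% ± 0.625 of that sum in MCF10A, 87.8% ± 0.178 in MCF10AT1 and 48.7% ± 0.601 in MCF10Ca1a (SD, n = 3). Transcripts of the other 5 ligands thus formed a small part of the sum in MCF10A and MCF10AT1 and the larger part in MCF10Ca1a. The share of EREG was 1.54%, 1.23% and 18.4%, that of HBEGF 0.698%, 0.63% and 11.5%, and that of TGFA 3.18%, 1.38% and 10.7%. EPGN kept to 9.91%, 8.85% and 10.2%, and BTC to at most 0.54%. The order in MCF10A and MCF10AT1 was AREG, EPGN, TGFA, EREG, HBEGF and BTC, with no overlap between neighbours. In MCF10Ca1a it was AREG, EREG, HBEGF, TGFA, EPGN and BTC, and TGFA and EPGN overlapped.

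**Figure D3:**
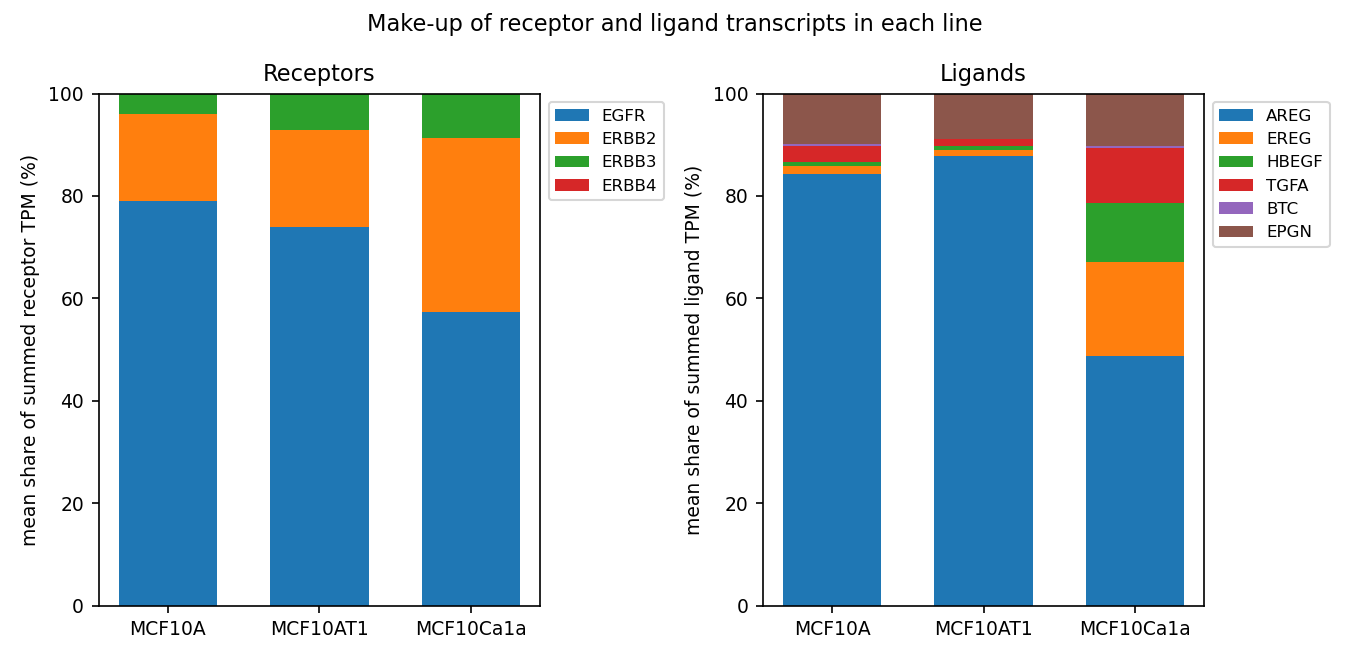
Mean share of each gene (vertical axis, percent, n = 3 libraries) in the summed TPM of the receptors (left) and of the ligands (right) in each line. EGFR falls from 79.1% to 57.3% of receptor transcripts and AREG from 84.3% to 48.7% of ligand transcripts between MCF10A and MCF10Ca1a.

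Among the receptors, EGFR changed by at most 1.24-fold in CPM and its partners ERBB2 and ERBB3 increased, ERBB2 in MCF10Ca1a and ERBB3 at both steps. EGFR (chr7:55019021-55211628, plus strand) was the most abundant receptor transcript in each line. It was at 63.3, 52.4 and 46.3 TPM in MCF10A, and next 40.0, 38.7 and 42.8 in MCF10AT1, and 51.5, 47.1 and 48.7 in MCF10Ca1a. In TPM the MCF10A and MCF10Ca1a libraries overlapped, and MCF10AT1 lay below both. EGFR was 1.21-fold lower in MCF10AT1 than in MCF10A (log2 fold change -0.27, SE 0.08, adjusted p = 0.00687; -0.18, adjusted p = 0.0112, without MCF10A replicate 1).

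Whether EGFR differed between MCF10Ca1a and the other lines depended on the scale. In CPM it was 1.24-fold lower in MCF10Ca1a than in MCF10A (log2 fold change -0.31, SE 0.08, adjusted p = 0.00193; -0.23, adjusted p = 0.00147, without MCF10A replicate 1). On log2(TPM + 1) the difference was -0.12 and did not pass limma's test (adjusted p = 0.255). Against MCF10AT1 the log2 fold change was -0.04, with a 95% interval from -0.20 to 0.13 (adjusted p = 0.657), whereas on log2(TPM + 1) it was 0.27 (adjusted p = 0.0241). The TPM scale also moved the median of all genes, to -0.11 for MCF10AT1 against MCF10A, 0.19 for MCF10Ca1a against MCF10AT1 and 0.08 for MCF10Ca1a against MCF10A. Relative to that median EGFR differed by 0.08 between MCF10Ca1a and MCF10AT1 and by -0.20 between MCF10Ca1a and MCF10A.

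ERBB2 encodes the ligandless partner receptor HER2 (chr17:39687914-39730426, plus strand). Its levels were 15.2, 10.6 and 9.22 TPM in MCF10A, compared with 10.7, 9.31 and 11.1 in MCF10AT1, and 29.5, 29.2 and 28.8 in MCF10Ca1a. MCF10A and MCF10AT1 overlapped and MCF10Ca1a stood above both. ERBB2 was 2.31-fold higher in MCF10Ca1a than in MCF10AT1 (log2 fold change 1.21, SE 0.09, adjusted p = 2.71e-08) and 2.28-fold higher than in MCF10A (1.19, SE 0.09, adjusted p = 2.75e-08). Between MCF10AT1 and MCF10A the value was -0.02, with a 95% interval from -0.22 to 0.18 (adjusted p = 0.867). Without MCF10A replicate 1, the highest of its line, that value turned to 0.13 and passed the test (adjusted p = 0.0279).

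ERBB3 (chr12:56076799-56103505, plus strand), the kinase-impaired receptor that binds neuregulins, rose along the series. It was at 2.94, 2.54 and 2.49 TPM in MCF10A, followed by 3.99, 4.05 and 3.87 in MCF10AT1, and 7.76, 7.46 and 6.72 in MCF10Ca1a. No line overlapped with another. The rise was 1.74-fold into MCF10AT1 (log2 fold change 0.80, SE 0.07, adjusted p = 3.82e-07), 1.97-fold from there into MCF10Ca1a (0.98, SE 0.07, adjusted p = 1.22e-08) and 3.43-fold in all (1.78, SE 0.07, adjusted p = 2.56e-11).

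ERBB4 (chr2:211375717-212538841, minus strand), the neuregulin and HBEGF receptor, was near the limit of detection. Its libraries held 0, 0 and 0 counts for MCF10A, then 1, 0 and 0 for MCF10AT1, and finally 8, 9 and 10 for MCF10Ca1a, at most 0.046 TPM. It passed the filter only through the MCF10Ca1a libraries, so its call is set by that filter. A floor of 3 counts was set for each library of the other lines. Against it the mean CPM of MCF10Ca1a was 5.68-fold that of MCF10A and 5.58-fold that of MCF10AT1. These ratios take the 8 to 10 counts of MCF10Ca1a as exact and are neither lower bounds nor tests.

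**Figure D4:**
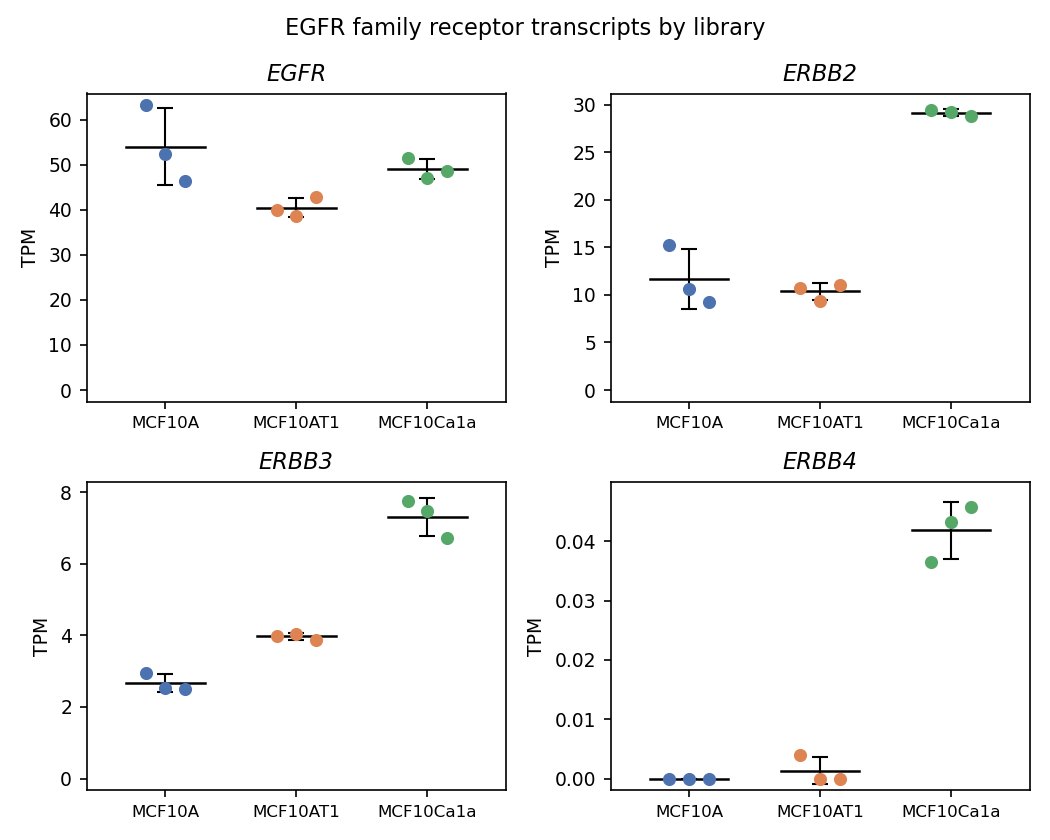
Level of the 4 receptor transcripts in TPM (vertical axis, a scale for each gene) in each library of the 3 lines; points are libraries, the line and bar the mean and SD of 3. ERBB2 and ERBB3 are highest in MCF10Ca1a, at means of 29.1 and 7.31 TPM, EGFR overlaps between MCF10A and MCF10Ca1a, and ERBB4 stays at or below 0.046 TPM.

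The summed receptor level was 68.3 ± 12 TPM in MCF10A, 54.8 ± 2.83 in MCF10AT1 and 85.5 ± 2.77 in MCF10Ca1a (SD, n = 3). EGFR formed 79.1%, 73.9% and 57.3% of it, ERBB2 16.9%, 18.9% and 34.1%, and ERBB3 3.93%, 7.26% and 8.55%. In all lines the order was EGFR, ERBB2, ERBB3 and ERBB4, with no overlap between neighbours. The MCF10A sum ranged from 58.0 to 81.4 TPM, replicate 1 being the highest.

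**Figure D5:**
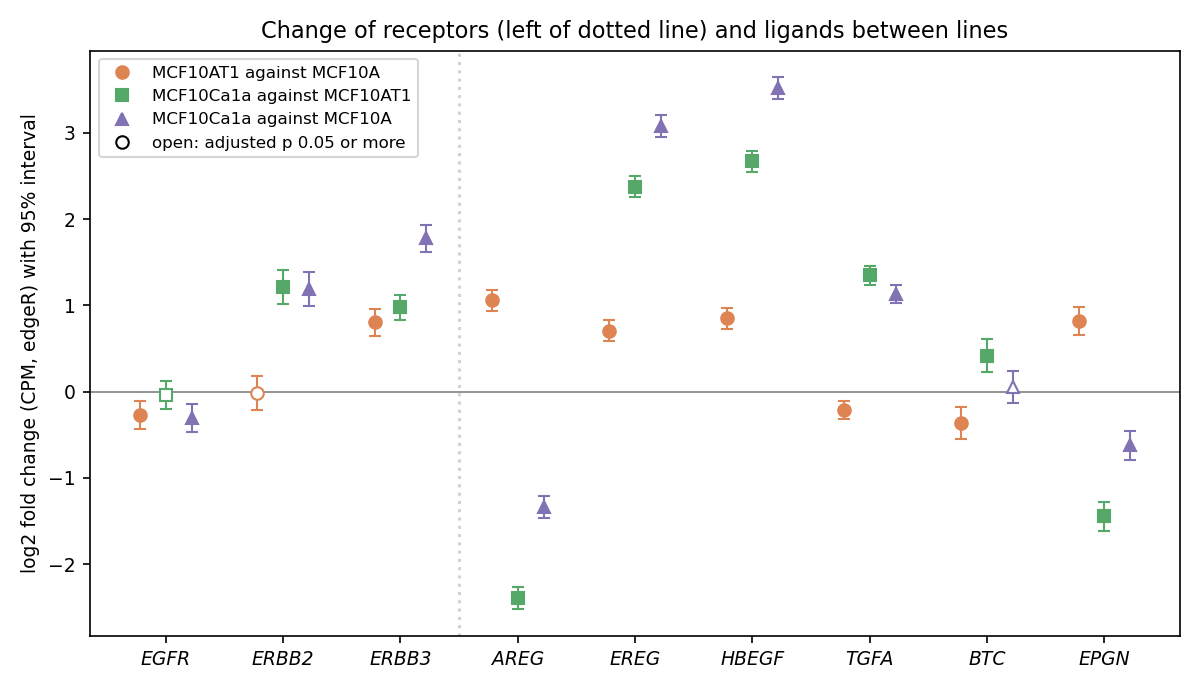
Log2 fold change of 9 members in the 3 comparisons (vertical axis, edgeR on CPM) with 95% intervals; filled symbols passed an adjusted p of 0.05. HBEGF and EREG lie furthest above 0, AREG furthest below it in MCF10Ca1a, and ERBB4 is left out because its call was set by the filter.

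ERBB2 lies in a stretch of chromosome 17 whose genes were mostly higher in MCF10Ca1a. Of 26 other genes tested within 500 kb, 20 were higher and 3 lower in MCF10Ca1a than in MCF10AT1, with a median log2 fold change of 1.25. Elsewhere on chromosome 17 51.1% of 1011 genes were higher and 27.8% lower, with a median of 0.31. GRB7, whose product binds activated ERBB2, lies 7.5 kb away and rose by 2.56 on the log2 scale (adjusted p = 1.02e-13). STARD3, a cholesterol transporter gene, rose by 1.78 (adjusted p = 5.69e-11) and CDK12, a transcription kinase gene, by 1.42 (adjusted p = 3.31e-10). TCAP, 21.4 kb away on the other side, had 3 to 5 counts in MCF10AT1 and 10 to 15 in MCF10Ca1a, and PPP1R1B, a phosphatase inhibitor gene, 7 to 9 and 257 to 265. Both passed the filter only through the MCF10Ca1a libraries, which sets their calls. Without them 18 of 24 genes were higher and 3 lower, with a median of 1.13. PGAP3 (2.23, adjusted p = 2.32e-11) and MIEN1 (0.96, adjusted p = 2.86e-09) overlap ERBB2 on the opposite strand. Whether the authors' counting used strand is not given in the sources used here, so their reads and those of ERBB2 may not be told apart. From MCF10A to MCF10AT1 the window had 7 genes higher and 12 lower, beside 25.3% and 33% of genes elsewhere on the chromosome. Without TCAP and PPP1R1B 6 of 24 were higher and 12 lower.

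Around ERBB3 on chromosome 12, 13 of 48 genes were higher and 28 lower in MCF10Ca1a than in MCF10AT1, beside 26.4% and 52.5% of 870 genes elsewhere on that chromosome. Without METTL7B, which passed the filter only through MCF10AT1, 13 of 47 genes were higher and 27 lower. PA2G4, an ERBB3-binding protein gene 0.814 kb away, fell by 1.30 on the log2 scale while ERBB3 rose. RPS26, a ribosomal protein gene on its other side, fell by 0.87. ENSG00000257411, a gene without a symbol, overlaps ERBB3 on the same strand and had a value of 0.20 (adjusted p = 0.516). Around HBEGF 7 of 27 genes were higher and 9 lower, beside 32.3% and 47.4% of 806 genes elsewhere on chromosome 5. Its nearest neighbours were PFDN1 (-0.79, adjusted p = 1.21e-08) and SLC4A9, which had 0 or 1 counts in MCF10AT1 and 10 to 12 in MCF10Ca1a. As SLC4A9 passed the filter only through the MCF10Ca1a libraries, no test is given for it, and without it 6 of 26 genes were higher and 9 lower. Beside TGFA, FAM136A fell by 0.78 and ADD2 by 0.38. PARM1, beyond BTC, had 32 to 40 counts in MCF10A and 1 to 3 in the other lines. Next to EGFR, LANCL2 fell by 0.97 from MCF10AT1 to MCF10Ca1a (adjusted p = 2.03e-08) and SEC61G by 0.56 (adjusted p = 2.53e-04). IKZF2, 461 kb from ERBB4, rose by 0.74 (adjusted p = 8.54e-08). The antisense gene EGFR-AS1 had 0 or 1 counts in each library.

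For each member other than ERBB4, 1 form took most of the gene's estimated counts, a measure that gives long forms more weight than TPM does. Its share of counts was 97.8% to 100% for HBEGF, 99.1% to 99.8% for AREG, 98.5% to 99.7% for EREG, 97.0% to 98.4% for TGFA and 94.5% to 97.4% for EGFR. ERBB2 and ERBB3 were more mixed, at 66.5% to 88.9% and 69.6% to 91.5%. In TPM the main ERBB3 form held less, 48.2% in MCF10A, 47% in MCF10AT1 and 72.5% in MCF10Ca1a, and the main EPGN form 70.1%, 69.6% and 63.6%. Shares were tested for 48 transcripts of 9 members with limma on the log2 ratio of each transcript to the rest of its gene. Between MCF10AT1 and MCF10A 0 of the 48 passed an adjusted p of 0.05 in limma, beside 2.96% of all 71521 transcripts tested. Of the 48, 6 had an unadjusted p under 0.05. From MCF10AT1 to MCF10Ca1a 8 passed, beside 16.6%, and from MCF10A to MCF10Ca1a 10, beside 21.1%. The 10 include ENST00000420316.6 of EGFR, which met the count minimum only because of the MCF10Ca1a libraries, so its call is set by that minimum. As a share, 8 of 48 and 10 of 48 lay near the background. The 8 fell to 4 without MCF10AT1 replicate 1 or 2, and the 10 to 6 without MCF10Ca1a replicate 1.

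The main EGFR transcript, ENST00000275493.7, fell from 97.3% ± 0.0953 of EGFR counts in MCF10AT1 to 94.9% ± 0.43 in MCF10Ca1a (SD, n = 3; limma, adjusted p = 0.00136). It was 96.9% ± 0.446 in MCF10A (MCF10Ca1a against MCF10A, adjusted p = 0.00259). A form that gained was ENST00000700146.1, which has no entry in GENCODE 29 and was singled out after its values were seen, at 2.02% in MCF10AT1 and 4.37% in MCF10Ca1a (adjusted p = 0.00235). ENST00000420316.6, also singled out by its values, had 0 to 3 counts in MCF10A and 22 to 43 in MCF10Ca1a, and 0 to 32 in MCF10AT1. It met the count minimum only because of the MCF10Ca1a libraries, so no test is given for it. For ERBB3 the main form ENST00000267101.8 held 82.5% ± 2.93 in MCF10A, 76.2% ± 6.13 in MCF10AT1 and 91.0% ± 0.791 in MCF10Ca1a. That rise passed the test against MCF10AT1 (adjusted p = 0.00443) and against MCF10A (adjusted p = 0.0201), and the latter was lost without MCF10A replicate 2 or 3 or MCF10Ca1a replicate 1 or 2 (adjusted p up to 0.0672). Another coding form, ENST00000411731.6, went the other way, from 7% and 5.08% to 1.13%, on 6 to 55 counts (adjusted p = 0.014 against MCF10AT1 and 0.00396 against MCF10A). The call against MCF10AT1 was lost without MCF10AT1 replicate 1 (adjusted p = 0.0522) or 2 (0.0507). In TPM its share was 29.5%, 22.6% and 6.59%. A further ERBB3 form, ENST00000683018.1, took 0 to 142 counts among the MCF10AT1 libraries and 0 in the other lines, and was not tested.

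The main form of ERBB2, ENST00000269571.10, held 87.1% ± 1.65 in MCF10A, 73.8% ± 10.2 in MCF10AT1 and 85.7% ± 1.92 in MCF10Ca1a, and none of the 3 differences passed the test. Without MCF10AT1 replicate 1 the difference in log2 ratio passed both against MCF10A (-1.68, adjusted p = 0.00822) and between MCF10Ca1a and MCF10AT1 (adjusted p = 0.00352, higher in MCF10Ca1a). The form ENST00000541774.5 was assigned 0 to 360 counts among the MCF10AT1 libraries and 0 in the other lines, and ENST00000578373.5, annotated for nonsense-mediated decay, 5.15% ± 2.39 in MCF10AT1. For EPGN the main form ENST00000413830.6 was 94.3% ± 0.357 in MCF10A and 92.5% ± 0.488 in MCF10Ca1a (adjusted p = 0.00675). The main form of TGFA, ENST00000295400.11, was at 98.0%, 98.1% and 97.2%, with adjusted p of 0.0266 and 0.0312 for MCF10Ca1a against MCF10AT1 and MCF10A. Either call was lost without MCF10Ca1a replicate 1 or 2, the first also without MCF10AT1 replicate 1 or 3 and the second without MCF10A replicate 1 or 3 (adjusted p up to 0.087). The share of the main EREG form, ENST00000244869.3, did not pass in any comparison, but without MCF10A replicate 1 it was higher in MCF10Ca1a than in MCF10AT1 (adjusted p = 0.0125) and than in MCF10A (adjusted p = 0.00502). Both also passed with 5 added to the counts of the transcript and of the rest of its gene (adjusted p = 0.0322 and 0.0201). The second BTC form, ENST00000512743.1, held 3.28% to 5.35% and did not differ detectably at 4 to 19 counts for each library.

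Of 5 other ligands of the receptors (EGF and 4 neuregulins), 4 were tested, NRG3 being too low. In MCF10AT1 against MCF10A 1 rose and 1 fell, beside 29.8% and 31.8% of all genes, and in MCF10Ca1a against MCF10AT1 1 rose and 3 fell, beside 38% and 40.3%. Against MCF10A 1 rose and 3 fell in MCF10Ca1a, beside 39% and 41.9%, but 0 did either on log2(TPM + 1), where genes under 1 TPM were filtered out. NRG1, which encodes a ligand of ERBB3 and ERBB4, was highest in MCF10AT1, as AREG and EPGN were. It was at 1.65 to 2.27 TPM in MCF10A, 4.56 to 5.55 in MCF10AT1 and 1.72 to 2.05 in MCF10Ca1a, so that the first and last overlapped. It rose into MCF10AT1 by 1.69 on the log2 scale (adjusted p = 1.30e-09) and fell by 2.59 from there into MCF10Ca1a (adjusted p = 2.66e-11). Against MCF10A the CPM value was -0.90 (adjusted p = 3.05e-06), but on log2(TPM + 1) it was 0.0027 (adjusted p = 0.981). EGF itself was supplied in the medium, and its transcript had 8 to 38 counts for each library. EGF was 4.87-fold higher in MCF10Ca1a than in MCF10AT1 (adjusted p = 4.92e-06). Its fall into MCF10AT1 (adjusted p = 0.0437) was lost in most alternatives. NRG2 fell in MCF10Ca1a against MCF10AT1 (-2.14, adjusted p = 1.33e-04), from 26 to 36 counts to 2 to 6, which is near the floor. NRG4 fell by 0.62 in CPM (adjusted p = 0.00224) but not on log2(TPM + 1) (adjusted p = 0.982).

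Genes for shedding and processing of the ligands numbered 8, all tested. In MCF10AT1 against MCF10A 2 rose and 6 fell, beside 29.8% and 31.8% of all genes. In MCF10Ca1a against MCF10AT1 5 rose, 1 fell and 2 did not pass the test, beside 38% and 40.3%. The 2 that rose first were RHBDF1 and ADAM10, the latter another sheddase (0.20, adjusted p = 0.0359). Only 1 was called higher without MCF10A replicate 2 or 3, MCF10AT1 replicate 1 or 2 or MCF10Ca1a replicate 1. The list's median log2 fold change was -0.40 and 0.39, against -0.0038 and -0.04 for all genes. ADAM17, the main sheddase, fell slightly into MCF10AT1 (-0.19, adjusted p = 0.00659) and rose 1.11 on the log2 scale into MCF10Ca1a (adjusted p = 2.10e-10). Its partner genes for maturation moved apart at the first step, RHBDF1 by 1.27 (adjusted p = 7.37e-09) and RHBDF2 by -0.72 (adjusted p = 1.93e-06). RHBDF2 then rose by 1.66 into MCF10Ca1a (adjusted p = 1.42e-10). Against MCF10A, 5 of the 8 were higher and 2 lower in MCF10Ca1a, beside 39% and 41.9% of all genes. TIMP3, an inhibitor of ADAM17, was lower in MCF10Ca1a than in MCF10AT1 (-1.19, adjusted p = 5.61e-09).

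Of 22 adaptors and first signal transducers, 6 rose and 11 fell in MCF10AT1 against MCF10A, beside 29.8% and 31.8% of all genes. In MCF10Ca1a against MCF10AT1 14 rose and 4 fell, beside 38% and 40.3%. Their median log2 fold changes were -0.11 and 0.43. The 11 fell to 7 when only the 2 lines were fitted, without a filter, or without MCF10AT1 replicate 1. GAB2, a docking protein gene, rose by 1.55 into MCF10AT1 (adjusted p = 7.66e-07), and STAT5A, a transcription factor gene, fell by 0.98 (adjusted p = 1.59e-05). From MCF10AT1 to MCF10Ca1a the largest rise was that of GRB7, the neighbour of ERBB2 (2.56, adjusted p = 1.02e-13). PIK3R1, the regulatory subunit of PI3-kinase, fell by 1.93 from MCF10AT1 to MCF10Ca1a (adjusted p = 3.11e-12). Of 24 genes for receptor inhibition and degradation 23 were tested, with 9 higher and 6 lower in MCF10AT1 and 9 higher and 8 lower from there to MCF10Ca1a, and medians of -0.03 and 0.02. ERRFI1, a feedback inhibitor of EGFR, rose 3.65-fold into MCF10AT1 (adjusted p = 1.12e-12) and had a value of 0.04 at the next step (adjusted p = 0.464). That step passed with DESeq2 (0.08, adjusted p = 0.0368) and with limma on log2(TPM + 1) (0.31, adjusted p = 2.12e-04). CBLB, a ubiquitin ligase gene, rose by 1.71 into MCF10Ca1a (adjusted p = 9.75e-12), while LRIG3 fell by 2.47 (adjusted p = 7.15e-13). NEDD4, another ubiquitin ligase gene, was lower in MCF10AT1 than in MCF10A by 1.37-fold (adjusted p = 4.15e-06), and PTPRJ, a phosphatase gene, was 6.4-fold higher in MCF10Ca1a than in MCF10A (adjusted p = 1.82e-11). From MCF10A to MCF10Ca1a 14 adaptors rose and 6 fell, and 9 inhibitors rose and 8 fell, beside 39% and 41.9% of all genes.

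Of 10 genes known as outputs of the ERK pathway, 8 rose and 2 fell in MCF10AT1 against MCF10A, beside 29.8% and 31.8% of all genes. Their median log2 fold change was 0.67, against -0.0038 for all genes. In MCF10Ca1a against MCF10AT1 4 rose and 5 fell, beside 38% and 40.3%, with a median of -0.33 against -0.04. EPHA2, a receptor kinase gene, rose by 0.58 and then by 2.92 (adjusted p = 2.42e-12). EPHA4 rose by 2.21 into MCF10AT1 (adjusted p = 1.14e-07) and fell by 2.12 from there into MCF10Ca1a (adjusted p = 1.82e-07), with a value of 0.09 against MCF10A (adjusted p = 0.742). Neither step was called with length-scaled counts (adjusted p = 0.0661 and 0.109). ETV5, a transcription factor gene, fell by 0.25 into MCF10AT1 (adjusted p = 0.00192). SPRY2, a feedback inhibitor gene, rose by 0.75 and then fell by 1.19. From MCF10A to MCF10Ca1a 4 of the 10 rose and 4 fell, beside 39% and 41.9% of all genes. The comparisons share lines, so their values for a gene are not independent of each other.

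The genes most like each member over the 9 libraries were found by the root mean square difference of centred log2 CPM among 11792 genes of at least 100 counts on average. For EGFR they were DSP (0.028) and NCOR1 (0.0313), for ERBB2 ABHD2 (0.0462) and TMEM63B (0.054), and for ERBB3 PTPRS (0.0474) and PPARA (0.0706). AREG was most like GASK1B (0.0841) and ZSCAN12 (0.107), and EPGN most like DPH5 (0.0357) and GSKIP (0.0496). For EREG they were RTN2 (0.11) and GRB7 (0.112), the latter a neighbour of ERBB2. HBEGF was most like FBXO32 (0.0751) and PRSS8 (0.0851), TGFA most like MARCHF6 (0.0378) and MED13 (0.0434), and BTC most like RBM4B and PIGH (both 0.0453). For ERBB4, at 0 to 10 counts, they were TGM4 (0.182) and RAB3A (0.183) of 11793 genes. Its log2 CPM in MCF10A and MCF10AT1 was set by the prior count of 2 added before the logarithm, so this likeness says little about ERBB4. With 3 lines a likeness mostly reflects 2 differences between line means. No other member was among these genes.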

How the data were processed

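RNA from 3 libraries of each of 3 lines was sequenced with a stranded poly(A) kit, per the labels' protocols. The authors deposited estimated counts and TPM for each gene and transcript, made with Salmon on hg38 per the submitters' processing notes. The annotation release and the strand setting are not given in the sources used here. The deposited estimated counts were rounded, and rows were kept by filterByExpr (minimum count 10, minimum total 15), leaving 17910 of 62666 genes. They were tested with edgeR 4.0.16 (R 4.3.3; TMM, quasi-likelihood, all 9 libraries, Benjamini-Hochberg threshold 0.05). The 10 members and the gene lists were chosen with earlier results of these data known. Members were all named, and from each list the gene with the largest called change in each direction and comparison, with the nearest tested genes, the 2 most alike genes and transcripts of at least 5% share; other genes were chosen by role or position after their values were seen. Transcript shares were tested with limma 3.58.1 on log2 of (transcript + 0.5) over (rest of gene + 0.5), for transcripts of at least 10 counts in 3 libraries. Alternatives were DESeq2 1.42.0, other scalings and filters, limma on log2(TPM + 1), libraries thinned to equal totals, a replicate block and leaving out each library. The tests were tried on simulated data. Same-numbered libraries of different lines did not deviate together. Positions are GENCODE 29 (GRCh38) by gene ID, promoters RefSeq GRCh38.p14. Neighbours lay within 500 kb. Library totals were 32930503 to 69508842 counts, and the floor for a count of 0 was 3 counts. 1 marker gene is not reported here.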

Additional observations from a re-analysis of the deposited data

How the results depend on the processing

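Of 587 member fold changes recomputed under alternatives, 579 kept their side of the threshold and were not counted as reversed. A change of direction was counted as a reversal only where a call was made. The 3 that reversed were ERBB2 in MCF10AT1 against MCF10A without MCF10A replicate 1 (0.13, in a range from -0.1122 with each library left out in turn), and EGFR in MCF10Ca1a against MCF10AT1 on log2(TPM + 1) (0.27) and log2(TPM + 0.1) (0.28). NRG1 in MCF10Ca1a against MCF10A reversed to 0.0027 on log2(TPM + 1), with or without a filter, and 0.0064 on log2(TPM + 0.1). The cause was not tested. All 120 recomputed counts of members called stayed within 1.5 times. The count of transcript shares called in MCF10AT1 against MCF10A was 2117, 931 with a replicate block and 1197 to 1989 with 1 library left out. Same-numbered libraries correlated at -0.0597 to 0.0451, and 0 of 9 matched their own number best in both other lines, so the replicate number was treated as a name. With the replicate block 10846, 13917 and 14397 genes were called in the 3 comparisons, against 11025, 14034 and 14491 without it. Among the members' transcripts, calls in MCF10Ca1a against MCF10AT1 fell from 8 to 4 without MCF10AT1 replicate 1 or 2 and to 5 without MCF10AT1 replicate 3 or MCF10Ca1a replicate 1. In MCF10Ca1a against MCF10A they went from 10 to 6 without MCF10Ca1a replicate 1 and to 7 without MCF10Ca1a replicate 2 or with the block. ERBB4 at 0 to 10 counts, EGF at 8 to 38, NRG2 at 2 to 40 and minor transcripts are limited by depth.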
